A study of Mus musculus with 33 samples.

Results

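The genes described here are 8 activators of messenger RNA decay: the TTP family of zinc-finger proteins (Zfp36, Zfp36l1 and Zfp36l2) and the BTG/TOB family (Btg1, Btg2, Btg3, Tob1 and Tob2). They were chosen by symbol, as the rows of these names among the 26621 gene symbols of each deposited table. All 8 were listed in the RNA-seq, m6A pull-down and YTHDF2 pull-down tables.

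TTP-family proteins bind AU-rich elements in the 3′ ends of short-lived messages and recruit the CCR4-NOT complex, whose deadenylases remove the poly(A) tail before decapping and 5′ to 3′ degradation. BTG and TOB proteins bind the deadenylase subunits of the same complex, and TOB proteins also bind the cytoplasmic poly(A)-binding protein, so that they speed deadenylation of messages more generally. YTHDF2 is a reader of N6-methyladenosine (m6A) that recruits CCR4-NOT by another route, through its scaffold. Btg1 and Btg2 are also known as antiproliferative genes, Btg2 as a p53 target and a marker of neural progenitors that are about to make neurons, and Zfp36 and Btg2 are known as immediate early genes whose own messages are short-lived.

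The libraries came from mouse hippocampal neural stem cells taken at postnatal day 0.5 and grown in culture with bFGF and EGF. For RNA-seq there were 18 libraries: cells carried the label Nestin-WT or Nestin-cKO, the gene being Ythdf2, and were taken after 0, 2 or 4 h in 5 µM actinomycin D, which blocks transcription, with 3 libraries for each genotype and time. The m6A series held 3 libraries of RNA pulled down with an m6A antibody and 3 of its input. The YTHDF2 series held 3 libraries pulled down with a YTHDF2 antibody, 3 with IgG and 3 of input RNA, and both series used untreated WT cells only. By its name a Nestin-cKO is a conditional deletion with a Cre under the Nestin promoter, which is meant to act in the neural lineage. In which cells of a culture it acted is not given. The labels do not say whether libraries of a group came from separate animals, so p-values measure the spread between these libraries, which may be technical. Libraries of 1 genotype that share a replicate number are called a culture below, because they deviated together.

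Several facts of the libraries bear on what follows. Total counts were 10257329 to 21353383 in RNA-seq, 12892222 to 28334300 in the m6A series and 8419106 to 23097887 in the YTHDF2 series. The targeted gene went against its label: normalized Ythdf2 was 219, 253 and 258 CPM (counts relative to the effective library size) in the WT libraries at 0 h and 3117, 1035 and 736 CPM in those labelled cKO. It was higher there at 0 h (log2 difference 2.74, SE 0.37, edgeR adjusted p = 2.7e-04), at 2 h (4.00, SE 0.39, adjusted p = 9.18e-06) and at 4 h (4.31, SE 0.40, adjusted p = 5.6e-06). A gene-level count does not show whether the part targeted by Cre is present, and genotypes are named below as labelled. Neural stem cell markers were abundant in every RNA-seq group, with a summed level of 12 markers of at least 8824 CPM in each library, whereas 4 of 6 microglial markers (Aif1, Csf1r, C1qa and Tmem119) had no count in any WT library at 0 h. In the YTHDF2 series, a library titled as input is described as YTHDF2 and the reverse. The descriptions, which match the count columns, were used.

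RefSeq promoter windows (GRCm38.p6) were listed for 7 of the 8 genes, the other being Zfp36l2. The 250 bases before the annotated start are shown for 4 genes, because Btg2, Zfp36l1 and Btg1 were the members with the highest level per transcript length in untreated WT cells and Zfp36 had one of the lowest. Capitals mark a cAMP response element (CRE, TGACGTCA), its short form (TGACG), an AP-1 site, a TATA box, a CCAAT box or the serum response factor's CArG box, on either strand. A CRE also holds 2 short forms, and in Zfp36l1 the TATA and CCAAT boxes overlap.
Zfp36, chr7:28379229-28379478, minus strand: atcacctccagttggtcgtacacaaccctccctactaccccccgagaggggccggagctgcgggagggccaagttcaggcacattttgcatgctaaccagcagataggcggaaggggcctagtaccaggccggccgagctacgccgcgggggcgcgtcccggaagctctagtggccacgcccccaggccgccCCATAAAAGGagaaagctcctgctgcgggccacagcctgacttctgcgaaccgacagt
Zfp36l1, chr12:80113014-80113263, minus strand: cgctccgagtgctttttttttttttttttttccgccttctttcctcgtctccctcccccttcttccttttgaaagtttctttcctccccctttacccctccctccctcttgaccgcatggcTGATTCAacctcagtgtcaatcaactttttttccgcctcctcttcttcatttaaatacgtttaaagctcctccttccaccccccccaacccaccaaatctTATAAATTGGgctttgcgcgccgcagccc
Btg1, chr10:96616751-96617000, plus strand: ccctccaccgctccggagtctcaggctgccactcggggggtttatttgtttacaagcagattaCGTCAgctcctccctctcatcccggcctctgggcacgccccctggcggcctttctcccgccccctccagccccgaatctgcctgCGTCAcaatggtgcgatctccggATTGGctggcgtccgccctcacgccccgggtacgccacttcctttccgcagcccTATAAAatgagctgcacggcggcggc
Btg2, chr1:134079156-134079405, minus strand: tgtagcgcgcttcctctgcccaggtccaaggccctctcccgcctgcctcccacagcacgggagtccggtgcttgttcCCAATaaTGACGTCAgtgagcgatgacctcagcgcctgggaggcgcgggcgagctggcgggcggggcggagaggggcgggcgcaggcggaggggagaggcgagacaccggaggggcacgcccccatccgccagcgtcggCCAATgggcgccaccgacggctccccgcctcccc
The most widely found motif was a GC box (GGGCGG, not capitalized above), which 32.7% of all RefSeq windows hold. It was found in Zfp36, Btg1, Btg2, Btg3, Tob1 and Tob2. Only Btg2 among the 7 genes had the full CRE, at positions -166 to -159 from the start, a motif found in 1.55% of the 32851 RefSeq windows of 250 bases. Short forms outside a CRE were found in Btg1 and Tob1, and 17.8% of all windows hold a short form, inside a CRE or outside it. The CArG box, found in 1.47% of all windows, was seen only in Zfp36, at positions -58 to -49. A TATA box, searched as TATAAA, was found in Zfp36l1, Btg1 and Tob1 (12.4% of all windows), an AP-1 site (TGA and TCA with any base between) in Zfp36l1 (6.75%) and a CCAAT box in Zfp36l1, Btg1, Btg2, Btg3 and Tob1 (33.8%). These are matches of letters and were not tested as binding sites.

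In untreated WT cells, Btg2 was the member with the highest level per transcript length. On the deposited TPM scale Btg2 (chr1:134074865-134079155) was at 68.3 ± 6.33 TPM (mean ± SD, n = 3). Zfp36l1 (chr12:80107760-80113013), at 20.6 ± 1.96 TPM, and Btg1 (chr10:96617001-96622813), at 20.5 ± 2.46 TPM, did not differ beyond their spread. Tob1 (chr11:94209842-94215495) followed at 12.04 ± 1.17 TPM, Zfp36l2 (chr17:84183924-84187947) at 9.60 ± 0.58 TPM and Tob2 (chr15:81848270-81858326) at 5.34 ± 0.13 TPM. The founding member of the TTP family, Zfp36 (chr7:28376784-28379228), and Btg3 (chr16:78359860-78377181) were the lowest, at 0.70 ± 0.17 and 0.83 ± 0.08 TPM, and these 2 values overlapped. Their levels rest on 8 to 9 counts per library for Zfp36 and 6 to 10 for Btg3.

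The order differed between assays and labels. In untreated cKO-labelled libraries Zfp36l1 came first (68.4 ± 23.1 TPM), followed by Btg1 (48.5 ± 39.5 TPM) and Btg2 (39.9 ± 26.4 TPM), with spreads that overlapped. In the input of the m6A series, also from WT cells but made with another library method and normalized separately, Btg2 was again first (121 ± 11.3 TPM), followed by Zfp36l1 (60.3 ± 2.29 TPM) and Tob1 (41.6 ± 3.78 TPM). There Btg1 was at 6.83 ± 0.48 TPM, below Zfp36 at 6.97 ± 0.85 TPM, and these 2 did not differ beyond their spread. In the input of the YTHDF2 series Zfp36l1 (69.9 ± 23.5 TPM), Btg2 (50.9 ± 18.4 TPM) and Tob1 (37.9 ± 13.4 TPM) overlapped. Zfp36 was thus listed at 9.64 ± 3.29 TPM in that input and at 0.70 TPM in the WT RNA-seq libraries, tables that cannot be tested against each other. The TTP family made up 22.4 ± 0.23% of the members' summed TPM in WT cells at 0 h and 43.8 ± 7.36% in cKO-labelled cells.

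**Figure D1:**
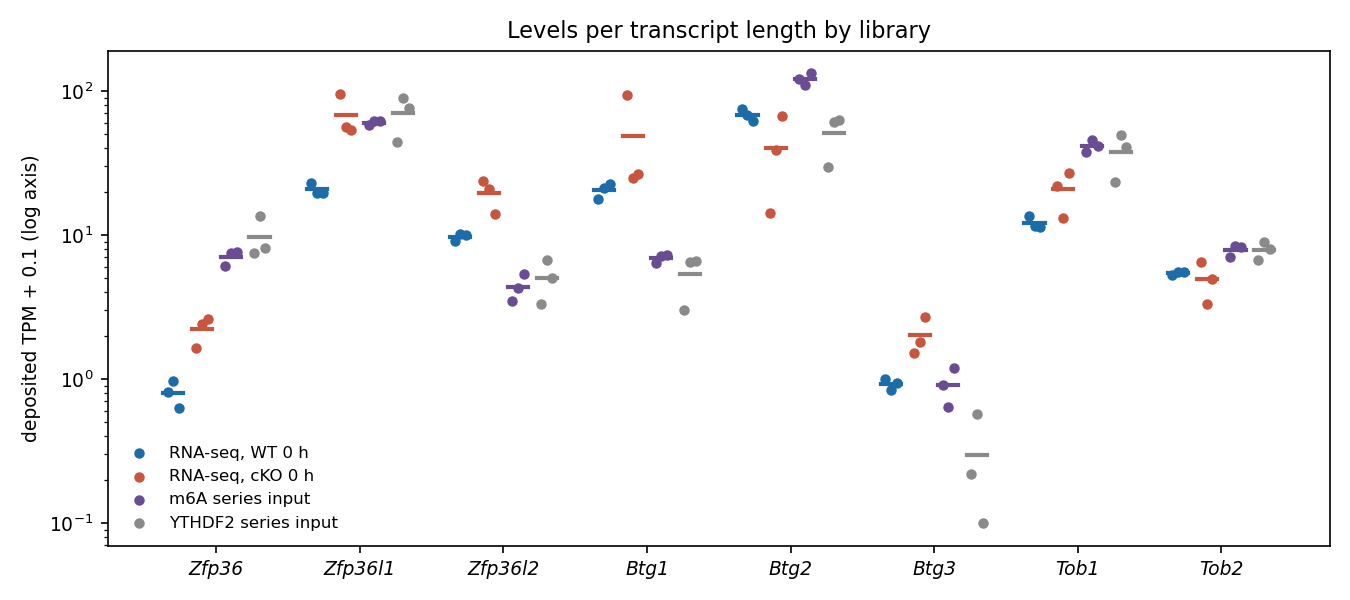
Deposited TPM plus 0.1 (log axis) of each member in untreated WT and cKO RNA-seq libraries and in the inputs of the m6A and YTHDF2 series, 1 point per library and a bar at the mean of 3. Btg2 is highest in WT RNA-seq (68.3 TPM) and in the m6A input (121 TPM), while Zfp36 and Btg3 are lowest in WT RNA-seq.

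The loss of message after transcription was blocked was followed first in WT cells. Of the 8 members, 5 were lower at 2 h than at 0 h and 6 at 4 h, with none higher, by edgeR's quasi-likelihood test with Benjamini-Hochberg adjustment over 14029 genes. Of all genes tested, 13.7% were lower at 2 h and 24.2% at 4 h. The median change of the members was -2.16 on the log2 scale at 2 h and -3.32 at 4 h, against a median of 0.0061 and 0.0049 over all genes. All changes are relative to the other messages of a library, since libraries were scaled to each other. With libraries scaled to ribosomal protein genes instead, the median of all genes at 4 h was -0.73 and 0.727% of the called genes were higher, against 39.2% of them with the scaling used here. The 6 members called here passed with that scaling too, and Zfp36l1 joined them. With that scaling 6010 of the 14029 genes were lower at 4 h, against 3402 here.

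Within the TTP family the 3 genes parted. Zfp36l1, a relative of Zfp36 that binds the same elements, had 32.9, 28.6 and 29.5 CPM at 0 h, 22.0, 20.6 and 22.6 CPM at 2 h and 17.8, 23.9 and 27.2 CPM at 4 h. The groups at 0 and 4 h did not overlap, and 71.8 ± 4.81% of the 0 h level was left at 2 h and 76.5 ± 19.8% at 4 h (n = 3). The difference at 4 h was -0.40 (SE 0.23) and did not pass (adjusted p = 0.178), but it passed with scaling to ribosomal protein genes (-1.14, adjusted p = 8.45e-04), to library size alone (-0.74, adjusted p = 0.0167), with limma on TPM (-0.87, adjusted p = 0.00292) and in a fit of the 6 libraries compared (-0.42, adjusted p = 0.0362). At 2 h it was -0.48 (SE 0.23, adjusted p = 0.166), and it passed with ribosomal scaling, with limma on TPM and in the fit of 6 libraries. These scalings also moved the median of all genes. At 4 h that median was -0.73 with ribosomal scaling, -0.33 with library size alone and -0.32 with limma on TPM, against 0.0049 here. At 2 h it was -0.40, -0.14 and -0.17 in the same order, against 0.0061 here. Zfp36l2, a close relative of Zfp36l1, had 15.2, 17.4 and 17.7 CPM at 0 h, 2.51, 2.09 and 2.98 CPM at 2 h and 1.13, 1.43 and 1.16 CPM at 4 h. These groups lay far apart, with 15.1 ± 2.70% left at 2 h and 7.40 ± 0.82% at 4 h. The fall was -2.72 (SE 0.29, adjusted p = 6.27e-06) at 2 h and -3.76 (SE 0.31, adjusted p = 1.44e-07) at 4 h.

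Zfp36 itself was near the limit of counting. It had 0.61, 0.76 and 0.47 CPM at 0 h and 0.063, 0.095 and 0 CPM at 4 h, that is 26 counts in all at 0 h, 6 at 2 h and 2 at 4 h. The level left at 4 h was 8.01% by summed counts, with an exact 95% interval for counting error of 0.92 to 32.0%. The call at 4 h (adjusted p = 0.00634) was lost when all libraries of WT culture 1 or WT culture 3 were left out (largest adjusted p = 0.0568). At 2 h it did not pass (adjusted p = 0.0548) but did with the culture as a block (adjusted p = 0.0371), by DESeq2 (0.0443), with library size alone (0.0419), with ribosomal scaling (0.021) and with limma on TPM (0.00391).

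The BTG genes of measurable level all fell. Btg2 had 111, 104 and 97.3 CPM at 0 h, 15.8, 13.0 and 14.8 CPM at 2 h and 10.4, 10.4 and 13.1 CPM at 4 h. Most of its loss came early: 14.0 ± 1.33% was left at 2 h and 10.9 ± 2.16% at 4 h, with a change of -2.84 (SE 0.35, adjusted p = 3.17e-05) at 2 h and -3.20 (SE 0.36, adjusted p = 3.21e-06) at 4 h. Btg1 had 42.9, 51.9 and 57.6 CPM at 0 h, 10.9, 12.2 and 12.9 CPM at 2 h and 2.76, 3.15 and 6.99 CPM at 4 h. Unlike the Btg2 groups at 2 and 4 h, those of Btg1 did not overlap, with 23.8 ± 1.50% left at 2 h and 8.21 ± 3.40% at 4 h. Its change was -2.08 (SE 0.46, adjusted p = 0.00442) at 2 h and -3.55 (SE 0.50, adjusted p = 2.93e-05) at 4 h. Btg3 was counted 25 times at 0 h, 11 times at 2 h and 14 times at 4 h over 3 libraries, and its change at 4 h of -0.76 (SE 0.87, adjusted p = 0.517) could not be told from none at this depth.

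Both TOB genes fell, Tob2 the further by its estimate. Tob1 had 14.8, 12.8 and 13.2 CPM at 0 h, 3.03, 2.63 and 5.03 CPM at 2 h and 2.13, 1.91 and 3.43 CPM at 4 h. In every culture the 4 h level was under the 2 h level, and 18.4 ± 6.50% of the 0 h level was left (-2.43, SE 0.40, adjusted p = 1.52e-04). Tob2 had 9.98, 10.6 and 11.0 CPM at 0 h, 1.46, 0.70 and 1.36 CPM at 2 h and 0.88, 0.67 and 1.16 CPM at 4 h. It was already at 11.2 ± 4.15% at 2 h (-3.14, SE 0.35, adjusted p = 1.05e-05) and at 8.55 ± 2.14% at 4 h (-3.51, SE 0.37, adjusted p = 1.31e-06). Btg1 lost its call at 2 h without any of the WT cultures (largest adjusted p = 0.0636), and Tob1 lost it without WT culture 1 (adjusted p = 0.0855), which left 3 members called there without culture 1.

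Between 2 and 4 h in WT cells none of the 8 members passed by edgeR (2 at an unadjusted p under 0.05 and 1 by DESeq2), where 2.31% of all genes were lower. With the culture as a block, Btg1 passed (-1.53, SE 0.42, adjusted p = 0.0335), and 7.38% of all genes were lower.

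**Figure D2:**
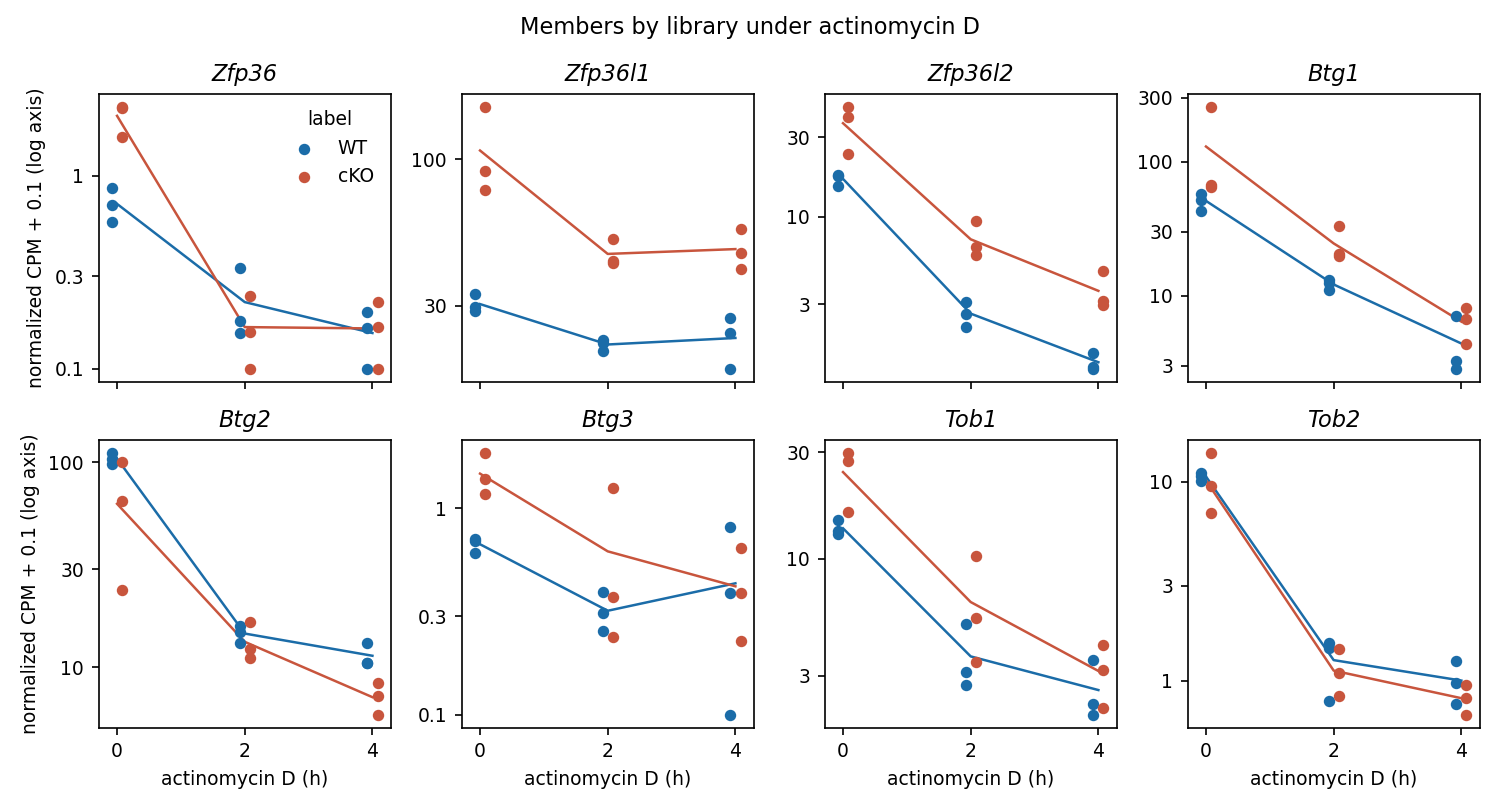
Normalized CPM plus 0.1 (log axis) of each member against hours of actinomycin D, 1 point per library (WT blue, cKO red, shifted sideways for clarity) and lines through the means of 3. Zfp36l1 keeps most of its level in WT cells, Btg2 and Tob2 lose most of theirs by 2 h, and cKO culture 1 stands apart for Btg1 at 0 h (257 CPM).

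In the cKO-labelled libraries 7 of the 8 members were lower at 2 h and the same count at 4 h, all but Btg3, against 9.85% of all genes at 2 h and 18% at 4 h. Zfp36, counted among them, passed the filter on low counts mainly through the cKO libraries at 0 h, so its call is tied to that filter. The median change of the members was -2.29 at 2 h and -3.26 at 4 h, against 0.048 and 0.083 over all genes. Zfp36l1 was among those that fell: it had 154, 90.6 and 77.7 CPM at 0 h, 42.6, 43.1 and 52.0 CPM at 2 h and 46.2, 40.6 and 56.5 CPM at 4 h. The 2 and 4 h groups overlapped, with 47.4 ± 19.7% left at 2 h and 49.2 ± 21.8% at 4 h, where cultures ranged from 29.9% to 72.8%. Its change was -1.23 (SE 0.23, adjusted p = 0.00168) at 2 h and -1.17 (SE 0.23, adjusted p = 0.00108) at 4 h. The call at 2 h was lost in a fit of the 6 libraries compared (adjusted p = 0.0708).

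The other TTP genes fell further. Zfp36l2 had 45.8, 39.6 and 23.7 CPM at 0 h, 6.48, 5.84 and 9.39 CPM at 2 h and 2.86, 3.01 and 4.63 CPM at 4 h, and 11.1 ± 7.29% was left (-3.38, SE 0.29, adjusted p = 2.76e-07). Zfp36 had 1.49, 2.18 and 2.15 CPM at 0 h and was counted 74 times there, 4 times at 2 h and 3 times at 4 h. That left 3.84% at 2 h (exact 95% counting interval 1.02 to 10.3%) and 3.09% at 4 h (0.62 to 9.40%).

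Among the BTG and TOB genes the 3 cultures differed at 0 h. Btg1 had 257, 66.8 and 64.4 CPM at 0 h, 20.3, 19.8 and 33.2 CPM at 2 h and 6.58, 4.29 and 8.05 CPM at 4 h. Culture 1 was high at 0 h only, and 7.16 ± 5.01% was left at 4 h (-4.35, SE 0.51, adjusted p = 6.8e-06). Without the cKO library 1 at 0 h the change was -3.38 and still passed. Btg2 had 23.6, 64.4 and 99.7 CPM at 0 h, 11.0, 16.5 and 12.2 CPM at 2 h and 5.78, 8.26 and 7.15 CPM at 4 h. Here culture 1 was the lowest at 0 h, and 14.8 ± 8.84% was left at 4 h (-3.15, SE 0.36, adjusted p = 6.16e-06). Tob1 (-2.99, SE 0.40, adjusted p = 3.07e-05) and Tob2 (-3.79, SE 0.37, adjusted p = 1.09e-06) ended at 13.4 ± 5.78% and 7.39 ± 1.11% of their 0 h levels. Btg3 changed by -2.07 (SE 0.83, adjusted p = 0.0698) at 4 h and passed with the culture as a block (-2.20, adjusted p = 0.0277), by DESeq2 and with limma on TPM. Between 2 and 4 h none of the 8 passed by edgeR (4 at an unadjusted p under 0.05 and 2 by DESeq2), against 0.791% of all genes lower, and Btg1 passed with the block (-2.01, SE 0.40, adjusted p = 0.0134), where 3.08% of all genes were lower.

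**Figure D3:**
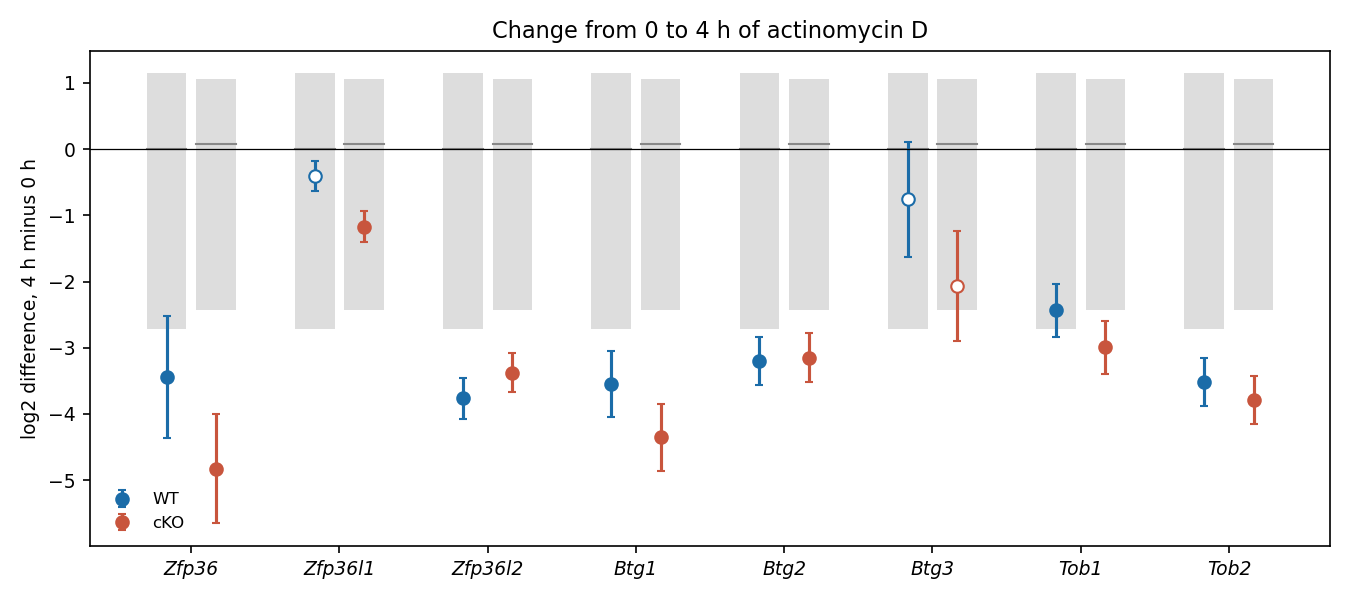
Log2 difference between 4 and 0 h of actinomycin D for each member in WT (blue) and cKO-labelled (red) libraries, with bars of 1 SE, filled where the adjusted p was under 0.05, over the 5th to 95th percentile of all genes (grey) and their median (grey line). Zfp36, Zfp36l2, Btg1, Btg2 and Tob2 lie below the grey range in both genotypes, while Zfp36l1 lies inside it in both.

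Changes over time were set against each other by a linear slope over 0, 2 and 4 h in each genotype. Losses were not always even over time. In WT cells Btg2 changed by -2.84 to 2 h and by -0.36 from 2 to 4 h, and Btg1 by -2.08 and -1.47. A slope is thus an average over the 4 h and not a decay rate. In WT cells the steepest members were Zfp36l2 at -0.97 (SE 0.10), Zfp36 at -0.93 (SE 0.25) and Tob2 at -0.93 (SE 0.14) log2 units per hour, and the flattest was Zfp36l1 at -0.10 (SE 0.07). In cKO-labelled libraries they ran from -1.46 (SE 0.23) for Zfp36 to -0.29 (SE 0.07) for Zfp36l1. The genotype difference in slope (cKO minus WT) passed for none of the 8 members by edgeR or DESeq2, with 0 of them at an unadjusted p under 0.05, where 0.00713% of all genes, a single gene, passed by edgeR. For Zfp36l1 the difference was -0.19 log2 units per hour (95% interval -0.39 to 0.0081, adjusted p = 0.608), and for Btg2 it was 0.015 (95% interval -0.31 to 0.34, adjusted p = 0.992). These intervals are wide, so that equal slopes were not shown.

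Levels were then compared between the labels at each time. At 0 h, 3 of the 8 members were higher in the libraries labelled cKO (Zfp36l1, Zfp36l2 and Btg1) and none was lower, where 7.71% of all genes were higher. At 2 and 4 h, 2 members were higher, Zfp36l1 and Zfp36l2, where 8.52% and 11.0% of all genes were. The median difference of the members was 1.18 at 0 h, 0.91 at 2 h and 0.28 at 4 h, against -0.0053, 0.053 and 0.084 over all genes. These medians include Zfp36 and Btg3, which passed the filter on low counts mainly through the cKO libraries at 0 h. The 0 h samples are shared with the time courses above, so the values are given side by side and not as separate evidence.

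Zfp36l1 and Zfp36l2 were higher at all 3 times. The 3 cKO-labelled libraries were all above the 3 WT libraries for Zfp36l1, by 1.82 (SE 0.24, adjusted p = 1.88e-04) at 0 h, 1.08 (SE 0.23, adjusted p = 0.00636) at 2 h and 1.06 (SE 0.23, adjusted p = 0.00575) at 4 h. The call at 2 h was lost without WT culture 2 (adjusted p = 0.0655) and that at 4 h without WT culture 1 (adjusted p = 0.0713). Groups did not overlap for Zfp36l2 either, with differences of 1.11 (SE 0.26, adjusted p = 0.0108) at 0 h, 1.50 (SE 0.28, adjusted p = 0.00293) at 2 h and 1.50 (SE 0.31, adjusted p = 0.00382) at 4 h. Its call at 0 h was lost without the WT library 1 at 0 h (adjusted p = 0.0553) and when any of the WT cultures was left out whole (largest adjusted p = 0.08). Zfp36 had no overlap at 0 h (1.66, SE 0.65) but did not pass (adjusted p = 0.0803), and it passed by DESeq2 (adjusted p = 0.045), with limma on TPM, without cKO culture 1 and in a fit of the 6 libraries.

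The BTG and TOB genes did not share one direction. Btg1 was higher at 0 h by 1.35 (SE 0.44, adjusted p = 0.0455), and this rested on 1 library: without the cKO library 1 at 0 h the difference was 0.37 (SE 0.32, adjusted p = 0.426). The call was also lost without any of the WT libraries at 0 h, with scaling to ribosomal protein genes, with limma on TPM and in a fit of the 6 libraries (adjusted p from 0.0821 to 0.144). Btg2 was estimated lower at 0 h, by -0.73 (SE 0.33, adjusted p = 0.126), with overlapping groups, and passed as lower without the cKO library 3 at 0 h (-1.24, adjusted p = 0.0237). Tob1 differed by 0.84 (SE 0.37, adjusted p = 0.117) at 0 h, Tob2 by -0.067 (SE 0.31, adjusted p = 0.898) and Btg3 by 1.25 (SE 0.80, adjusted p = 0.275), and none of these passed. In a fit of the 6 libraries alone, Tob1 passed at 0 h (adjusted p = 0.0472) and Btg1 at 2 h (adjusted p = 0.0379). Without cKO culture 1, Btg1 and Tob1 passed at 2 h beside both TTP genes, which made 4 members, and without WT culture 2 only Zfp36l2 did. Zfp36 and Btg3 passed the filter on low counts mainly through the cKO libraries at 0 h. Their passing the filter is thus tied to that difference and to their changes and slopes over time in cKO-labelled libraries.

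Markers of other cell types moved with the labels. At 0 h, 6 of the 9 fibroblast markers tested were higher in cKO-labelled libraries, and the summed level of 10 fibroblast markers was 12.2 to 23.8 CPM in WT and 21.3 to 72.5 CPM in cKO libraries. The same count of 6 was higher at 2 and at 4 h, with 1 lower at 4 h. Col1a1, among these markers, was at most 0.31 CPM in any WT library and 0.91 to 3.82 CPM in cKO libraries at 0 h. Such a marker passed the filter on low counts through the cKO libraries, so the count of those higher is tied in part to that filter. The summed level of 9 neuronal markers was 192 to 246 CPM in WT and 57.0 to 71.1 CPM in cKO libraries, with 4 of them lower (Dcx, Neurod1, Neurod6 and Snap25) and 3 higher (Dlx1, Dlx2 and Stmn2). That of 8 astrocyte markers was 1171 to 1711 CPM against 606 to 932 CPM, with 3 lower and none higher. That of 10 oligodendrocyte-lineage markers was 519 to 647 CPM against 246 to 574 CPM, with 5 lower and 1 higher. Of the 12 neural stem cell markers, 4 were lower, 1 was higher (Vim) and 7 did not pass, and their summed level was 14332 to 16599 CPM in WT and 9183 to 12304 CPM in cKO libraries. Over all genes, 7.71% were higher and 9.89% lower in this comparison. The part of cell makeup in the differences of Zfp36l1, Zfp36l2 and Btg1 was not tested, and in bulk samples fewer cells of a type and less RNA per cell cannot be told apart.

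**Figure D4:**
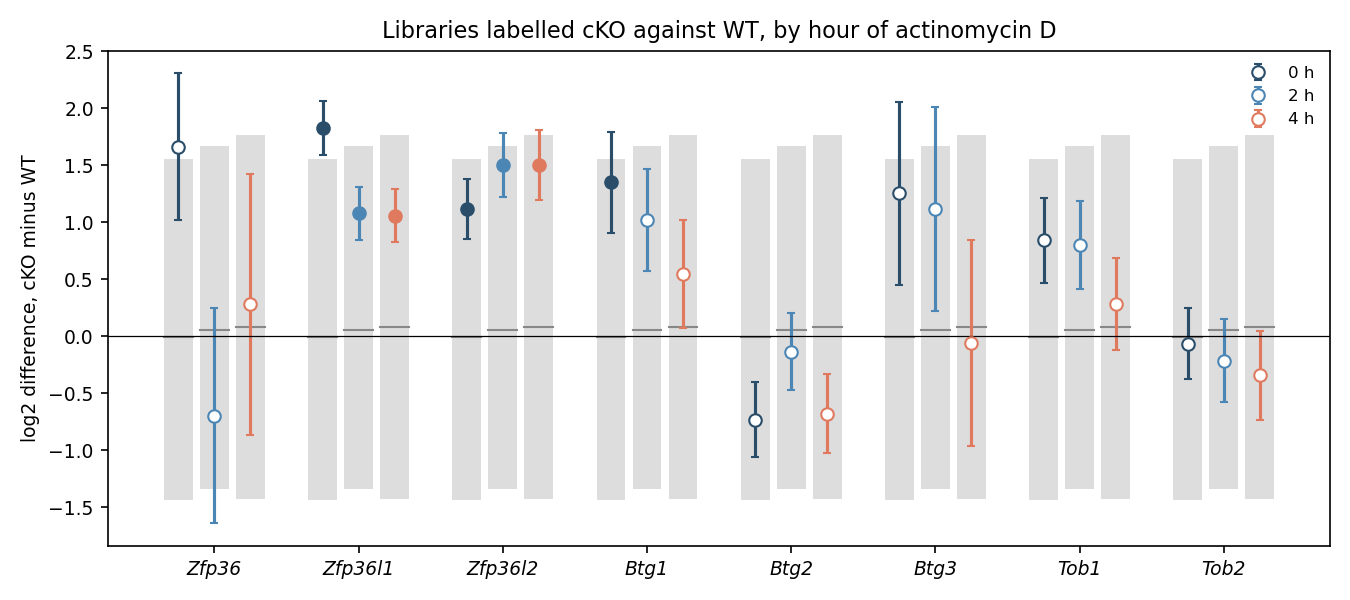
Log2 difference between libraries labelled cKO and WT for each member at 0, 2 and 4 h of actinomycin D, with bars of 1 SE, filled where the adjusted p was under 0.05, over the 5th to 95th percentile of all genes (grey) and their median (grey line). Zfp36l1 and Zfp36l2 are filled and above 0 at all 3 times, and Btg1 is filled at 0 h only.

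The members' own messages were compared between the m6A pull-down and its input in WT cells. These ratios are relative to the other messages of a library, so they do not show whether a message carries m6A. Of the 7 members tested (Btg3 had too few counts), none was higher and Zfp36l2 was lower, where 6.06% of all genes were higher and 14.3% lower. A count of 1 in 7 lies near the latter share. Zfp36l2 had 4.72, 3.65 and 4.75 CPM in the pull-down and 6.25, 7.64 and 9.69 CPM in the input. The groups did not overlap, and the difference was -0.86 (SE 0.21, adjusted p = 0.0206). That call was lost without pull-down library 2 (adjusted p = 0.0535), pull-down library 3 (0.0564) or input library 3 (0.0944), and with limma on TPM (adjusted p = 0.155).

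Btg2 and Tob2 leaned the other way. Btg2 had 228, 208 and 243 CPM in the pull-down and 195, 175 and 212 CPM in the input, a difference of 0.22 (SE 0.09, adjusted p = 0.123) that was positive in 3 of 3 numbered pairs. Tob2 had 22.2, 19.0 and 17.9 CPM against 14.3, 17.1 and 16.8 CPM (0.29, SE 0.13, adjusted p = 0.156), with no overlap between the groups. Neither passed as fitted here, but both passed with libraries scaled by size alone (Btg2 0.44, adjusted p = 0.00749, and Tob2 0.50, adjusted p = 0.0164) and with limma on TPM, which moved the median of all genes from 0.0096 to 0.22 and 0.40 and the share of called genes that were higher from 29.8% to 73.7% and 91.1%. With the number as a block Btg2 passed too (0.22, SE 0.05, adjusted p = 5.22e-04), where 17.2% of all genes were higher, but the m6A numbers did not clearly pair (r from 0.0708 to 0.427). Zfp36l1 lay at -0.03 (SE 0.07), and at 0.44 with limma on TPM, the median of all genes there being 0.40. Zfp36 (-0.12, SE 0.20), Btg1 (-0.17, SE 0.15) and Tob1 (-0.21, SE 0.12) did not pass.

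In the YTHDF2 pull-down from WT cells Tob1 was called higher than both input and IgG. It had 85.1, 151 and 129 CPM in the pull-down, 45.6, 67.6 and 62.8 CPM with IgG and 30.3, 59.3 and 55.9 CPM in the input. All 3 pull-down libraries were above all others. Tob1 was higher than input by 1.33 (SE 0.28, adjusted p = 0.00237), where 30.7% of all genes were higher, and higher than IgG by 1.05 (SE 0.28, adjusted p = 0.0225), where 14.3% were. It was the only one of 7 members tested to pass either comparison, a count not above those shares of all genes. Among all genes tested its difference lay at percentile 86.9 over input and 88.1 over IgG. The difference from IgG was lost without IgG library 1 (adjusted p = 0.0768) or 3 (0.0629), without YTHDF2 library 2 (0.106) or 3 (0.0653), and with limma on TPM (0.0713). Under the labels of the sample titles, which swap input and YTHDF2, Tob1 was instead lower than input (-1.33) and its difference from IgG was -0.28 (adjusted p = 0.463).

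Libraries with the same number deviated together in this series, and number 1 was the lowest of its group for each of the 7 members tested, in input, IgG and YTHDF2 alike. With the number as a block, 4 members were higher than IgG: Zfp36l1 (0.33, adjusted p = 0.0353), Btg1 (0.59, adjusted p = 0.0118), Btg2 (0.32, adjusted p = 0.0491) and Tob1. In that fit 22.0% of all genes were higher than IgG. For Btg2, with 91.7, 215 and 215 CPM in the pull-down, 75.2, 171 and 169 CPM with IgG and 52.0, 97.0 and 116 CPM in the input, the difference from input was 0.98 (SE 0.39, adjusted p = 0.0593) and it passed with the block (0.95, SE 0.12, adjusted p = 4.53e-07), where 38.9% of all genes were higher. All 3 numbered pairs were above 0 in both of these comparisons. IgG alone also took Btg2 above input by 0.65 (SE 0.39, adjusted p = 0.219, and 1.37e-04 with the block).

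IgG over input is the background of the pull-down. None of the 7 members passed there by edgeR (1 at an unadjusted p under 0.05 and 1 by DESeq2, Tob2 in both), against 37.1% of all genes in either direction. With the block 6 of 7 passed, with Zfp36 (0.56), Btg2 (0.63) and Tob1 (0.31) higher and Zfp36l1 (-0.38), Btg1 (-0.53) and Tob2 (-0.62) lower, against 55.1% of all genes in either direction. Zfp36 differed from IgG by -0.29 (SE 0.38, adjusted p = 0.656), Zfp36l2 by 0.31 (SE 0.34, adjusted p = 0.59) and Tob2 by 0.38 (SE 0.23, adjusted p = 0.337). Since no member was called higher in the m6A pull-down, where 6.06% of all genes were, none could be called higher in both pull-downs.

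**Figure D5:**
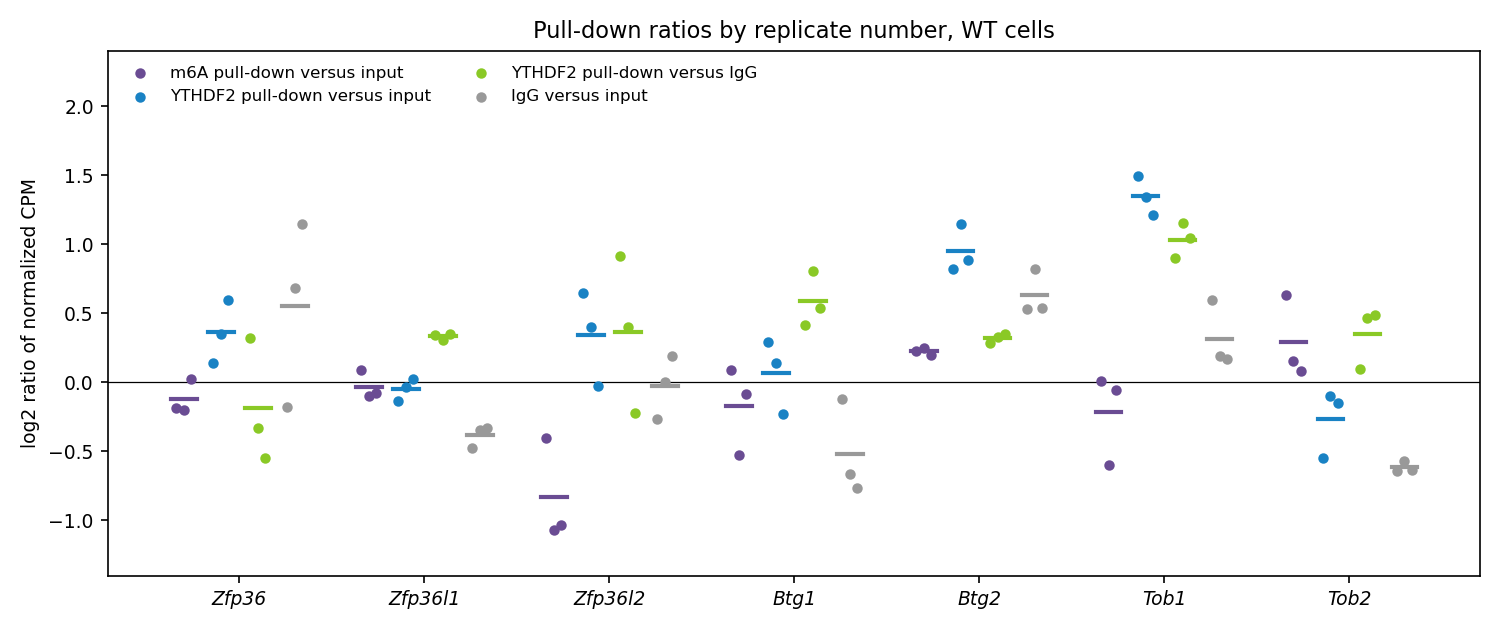
Log2 ratio of normalized CPM between libraries of the same number for the 7 members tested in the pull-downs, 1 point per number and a bar at the mean of 3, for m6A over input, YTHDF2 over input, YTHDF2 over IgG and IgG over input. Tob1 has YTHDF2 ratios between 0.90 and 1.49 in all pairs, and Zfp36l2 has m6A ratios between -1.07 and -0.41.

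The machinery that the members recruit was followed in a list of 18 deadenylases, CCR4-NOT subunits and poly(A)-binding proteins present in the tables. At 0 h, 1 was higher and 3 were lower in cKO-labelled libraries, with a list median of -0.34, where 7.71% of all genes were higher and 9.89% lower. The higher one was Ccrn4l, which encodes the rhythmic phosphatase nocturnin of the deadenylase-like family (2.03, adjusted p = 0.00127). The lower ones were Cnot4 (-0.81, adjusted p = 0.0131), Cnot2 (-0.58, adjusted p = 0.0382) and Cnot1, the scaffold (-1.12, adjusted p = 0.0416). In WT cells after 4 h, 8 of the 18 were lower and 1 was higher (list median -0.58), led by Toe1 (-2.57) and Cnot2 (-1.84), where 24.2% of all genes were lower and 15.6% higher. In cKO-labelled libraries 6 were lower and none was higher (list median -0.28), where 18% of all genes were lower and 12.1% higher.

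Of 18 decapping and 5′ to 3′ decay factors tested, 1 was lower at 0 h in cKO-labelled libraries, Eif4enif1, which links the cap-binding protein to decapping (-1.03, adjusted p = 0.00747). After 4 h in WT cells 4 were lower and 3 higher (list median -0.14), with Edc3, an enhancer of decapping, lowest by p (-2.95, adjusted p = 1.31e-06). In the m6A pull-down 7 were lower and 1 higher, led by the Lsm ring genes Lsm6 (-0.78), Lsm7 (-0.99), Lsm5 (-0.90) and Lsm4 (-0.64), where 14.3% of all genes were lower and 6.06% higher. In the YTHDF2 pull-down over IgG, Ddx6, the helicase of decay bodies (2.29, adjusted p = 4.52e-06), and Dcp1a (0.79, adjusted p = 0.00893) were higher and Edc4 was lower (-0.58, adjusted p = 0.0442), where 14.3% of all genes were higher and 0.330% lower. The shares of all genes given here and in the paragraph before apply to the lists that follow.

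Other RNA-binding adaptors of decay formed a list of 23, which holds Ythdf2 itself, and 22 were tested in RNA-seq. At 0 h the one that was higher in cKO-labelled libraries was Ythdf2, and 4 were lower, among them Rc3h2, a roquin (-1.13, adjusted p = 0.00234), and Tnrc6b, a partner of Argonaute (-0.79, adjusted p = 0.00757). After 4 h in WT cells 10 were lower and 2 higher, among them Tnrc6a (-2.54), Ythdf1 (-2.59) and Zc3h12c (-2.34). In cKO-labelled libraries 7 were lower and none was higher, again with Tnrc6a (-2.23) first by p. In the YTHDF2 pull-down over IgG, Ythdf2 (1.60) and Zc3h12c (1.29) were higher and Ybx1 was lower (-0.64).

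Textbook AU-rich messages of the ZFP36 family formed the last list, 20 genes of which 12 were tested. After 4 h, 8 of the 12 were lower in WT cells and 8 in cKO-labelled libraries, with list medians of -2.63 and -3.09. The first by p in both were Myc (-4.76 in WT and -5.31 in cKO), Fos (-3.21 and -3.92), Ptgs2 (-3.24 and -4.74) and Ccl2 (-2.90 and -4.16). At 0 h, 5 of the 12 were higher and 1 lower in cKO-labelled libraries (list median 0.93) and the lower one was Bcl2 (-0.97). At 2 h, 3 were higher and 1 lower, where 8.52% of all genes were higher and 8.54% lower, and at 4 h 3 were higher and 2 lower, where 11.0% and 9.11% were. Those higher at 0 h included Ptgs2, the inducible cyclooxygenase (2.69, adjusted p = 0.0015), the chemokine Ccl2 (2.29, adjusted p = 0.00356), Ier3 (2.00, adjusted p = 0.00489) and the cyclin Ccnd1 (1.06, adjusted p = 0.0215). In the m6A pull-down, Myc was higher than input (0.39, adjusted p = 0.03), and in the YTHDF2 pull-down over IgG Bcl2 was higher (1.37, adjusted p = 0.00183).

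Across the 18 RNA-seq libraries, members that fell together had high correlations of log2 CPM, given here as a description, since the points share time, genotype and culture. Zfp36l2 and Btg1 were at r = 0.94, Zfp36l2 and Tob1 at 0.93 and Btg2 and Tob2 at 0.91, whereas Zfp36l1 and Btg2 were at 0.18. Among 5570 well-measured genes the profiles most like Btg1 were those of Rap2b (r = 0.98), Fbxw7 (0.97) and Naa30 (0.96). For Btg2 they were Arrdc3 (0.965), Ppfibp1 (0.96) and Vcl (0.95). For Tob1 they were Mcl1 (0.96), Mkl2 (0.95) and Zfand5 (0.94), and for Tob2 Zfp281 (0.97), Arhgap29 (0.97) and Cpeb2 (0.96). For Zfp36l2 they were Mkl2 (0.97), Rap2b (0.97) and Lrrfip1 (0.97), so that Rap2b and Mkl2 each came up for a second member. For Zfp36l1 they were Nudt4 (0.95), B4galt6 (0.95) and Timm17a (0.94), and for Zfp36 Wdr33 (0.94), Klf6 (0.94) and Spry4 (0.92). The best for Btg3 was lower, Rtn4 at 0.86.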

How the data were processed

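The deposited tables hold raw read counts and TPM for 26621 gene symbols in each assay. Per the submitters' processing notes, the authors used bcl2fastq 2.17.1.14, Trimmomatic 0.32 and STAR 2.5.2a with GRCm38. For the counting tool, annotation and strand setting, the sources used here give nothing, so overlapping and antisense genes may share counts. The deposited TPM values were used for levels per length and in 1 alternative. The 3 assays were normalized and tested separately.

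Counts were tested with edgeR 4.0.16 (R 4.3.3): TMM scaling, filterByExpr with a minimum count of 10, quasi-likelihood tests, 2-sided, with Benjamini-Hochberg adjustment over all genes of an assay and a threshold of 0.05. All 18 RNA-seq libraries entered 1 fit. Normalized CPM are counts relative to the effective library size, and 95% intervals of log2 values use the t quantile of each test. Alternatives used DESeq2 1.42.0, limma 3.58.1 on log2(TPM + 1), other scalings, no filter, the replicate number as a block, fewer libraries and the labels of the sample titles. The code was tested on simulated data. Intervals of ratios of summed counts are exact (Clopper-Pearson) and cover counting error only.

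Same-numbered libraries of 1 genotype at other times had correlated deviations from their group means (r from 0.126 to 0.719, 18 of 18 pairs over 0.1), as did those of the YTHDF2 series (0.353 to 0.646, 9 of 9). The pairing comes from these data, not from the labels. All 8 members passed the filter in RNA-seq and 7 in each pull-down series. Besides the members, genes named were list members that passed, at most 4 per list and comparison by smallest p, and the 3 genes most correlated with each member; the neuronal markers named and Vim were chosen after their values were seen. Members, lists and tests were chosen with earlier results of these data known. One list gene is not reported here.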

Additional observations from a re-analysis of the deposited data

How the results depend on the processing

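Over 108 results, 1994 values from alternatives kept the direction and side of the threshold in 1876 cases, passed newly in 77, lost the call in 37 and reversed in 4. The cause of these changes was not tested. The reversed values were Zfp36l1 in the m6A pull-down with limma on TPM (0.44) and Tob1 under the labels of the sample titles (-1.33 over input, -0.28 over IgG and -1.05 for IgG over input). Whole cultures or numbers left out were chosen after seeing the data.

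Members called lower from 2 to 4 h in WT cells, 0 here, were 1 by DESeq2, 2 with library size alone, 1 without the filter, 2 with ribosomal scaling, 1 with the replicate block and 1 with only the 6 libraries. In cKO-labelled libraries, also 0 here, they were 2 by DESeq2, with library size alone, with limma on TPM and with ribosomal scaling, and 1 without the filter, with the replicate block, without culture 1 and without culture 3. Of all genes, 622 were lower in WT cells by DESeq2, 904 with library size alone and 1337 with ribosomal scaling, against 324 here. In cKO-labelled libraries 345 were lower by DESeq2, 384 with library size alone, 394 with limma and 700 with ribosomal scaling, against 111 here. Members differing between genotypes at 0 h were 1 without WT culture 1, 2 or 3. At 2 h they were 4 without cKO culture 1 and 1 without WT culture 2, and at 4 h 1 without WT culture 1. Members lower at 2 h in WT cells were 3 without WT culture 1.

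In the m6A pull-down the count of 1 became 3 with library size alone and with limma on TPM, 2 with the replicate block (Btg2 0.22, adjusted p = 5.22e-04) and 0 without the libraries numbered 2 or 3. Of 14167 genes tested there, 3627 were higher and 1293 lower with library size alone, and 7281 and 715 with limma on TPM. With the block 17.2% were higher and 20.7% lower. The m6A numbers did not clearly pair (r from 0.0708 to 0.427). Over input, YTHDF2 gave 2 members without the filter, with limma on TPM, with the replicate block and without number 1, and 1 under the titles (Tob1, lower). Over IgG it gave 4 with the block and 0 with limma on TPM, under the titles and without number 2 or 3. IgG over input gave 1 by DESeq2, with its size factors in edgeR, with only the 6 libraries and under the titles, 6 with the block and 4 without number 1. Of 14255 genes tested, 5983 were higher in YTHDF2 over input with limma on TPM, and 38.9% with the block. Over IgG 22.0% were higher with the block. For IgG over input DESeq2 called 2898 higher and 2946 lower, its size factors in edgeR 2684 and 2688, and the block 55.1% in either direction. For fits with fewer libraries, without the filter or under the titles, shares of all genes are not given in this section.

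Leaving out 1 library at a time gave 0 to 1 members for cKO 2 to 4 h, 1 to 4 between genotypes at 0 h, 2 to 3 at 2 h, 0 to 1 in the m6A pull-down, 1 to 2 for YTHDF2 over input, 0 to 1 over IgG and 0 to 1 for IgG over input. The replicate block changed no other call than those given here and in the results. Ribosomal scaling moved the share of called genes that were higher in cKO-labelled libraries from 43.8% to 19.5% at 0 h, from 49.9% to 23.9% at 2 h and from 54.8% to 28.5% at 4 h, and over 4 h in those libraries from 40.1% to 0.543%. For YTHDF2 over IgG DESeq2 moved it from 97.7% to 71.3%. Few counts limit Zfp36 and Btg3 in RNA-seq.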
